A study of Mus musculus with 9 samples.

Results

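The Hox genes of blood progenitors and their cofactors Meis1 and Pbx3 were followed across 3 sorted cell groups. The members are all probe sets whose single gene symbol on the array was Hoxa3, Hoxa5, Hoxa7, Hoxa9, Hoxa10, Hoxb4, Hoxb5, Meis1 or Pbx3, which gave 19 of 45037 probe sets for 9 of 18193 genes. A probe set is a group of short probes on the Affymetrix array that is read as 1 measurement, so several probe sets of a gene measure different stretches of its transcripts.

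Hox proteins are transcription factors with a homeodomain, the fold that contacts DNA, and their genes stand in clusters along the chromosome. Meis and Pbx proteins carry a variant of that fold with an insert of extra residues (the TALE class) and bind DNA next to Hox proteins, which makes the joint site longer and more selective. In blood, genes of the Hoxa and Hoxb clusters are active in stem and early progenitor cells and are turned down as cells mature, and sustained HOXA9 with MEIS1 is a hallmark of many acute myeloid leukemias.

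RNA came from bone marrow of mice aged 6 weeks. The LSK WT group (3 arrays) holds lineage-negative, cKit+, Sca1+ cells, the fraction with hematopoietic stem cells and multipotent progenitors, from Ncstn flox/flox mice. The GMP WT group (3 arrays) holds granulocyte-monocyte progenitors, which are lineage-negative, cKit+, Sca1-, CD34+ and FcgammaRII/III+, from mice of the same Ncstn flox/flox genotype. The GMP NcstnKO group (3 arrays) holds cells of that same gate from Ncstn flox/flox Mx1-cre+ littermates, in which Cre removes Ncstn, the gene of the γ-secretase subunit nicastrin. All mice, controls included, carried the floxed alleles and were given polyIC, a synthetic inducer of interferon, in 3 injections on alternate days from 14 days of age at 20 µg per g, and were analysed 4 weeks after that. The Mx1 promoter responds to interferon and is not restricted to blood cells, and no group carried Cre without floxed Ncstn, so Cre itself and the loss of nicastrin cannot be told apart. The labels do not say whether an array holds RNA of 1 mouse or of a pool, so p-values measure the spread between these arrays.

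To show where the members sit, the 250 bases before a RefSeq start site are printed for Hoxa3, Hoxa9, Hoxa10 and Meis1, each of which had its brightest probe set lower in both GMP groups than in LSK. All are on the minus strand of assembly GRCm38.p6 and are written 5′ to 3′ along the gene, and the windows of Hoxa3, Hoxa9 and Hoxa10 lie in the Hoxa cluster, with that of Hoxa7 between those of Hoxa3 and Hoxa9. The Hoxa3 window is chr6:52213068-52213317, that of Hoxa9 is chr6:52227371-52227620, that of Hoxa10 is chr6:52240855-52241104 and that of Meis1 is chr11:19018970-19019219. The Hoxa5 window, chr6:52204588-52204837, lies at lower coordinates than that of Hoxa3, so the Hoxa3 start used here is out of the numerical order of the genes. Hoxa10 has a second window, chr6:52234940-52235189, which is not printed. Capitals mark a match to the core letters of the MEIS motif.
Hoxa3: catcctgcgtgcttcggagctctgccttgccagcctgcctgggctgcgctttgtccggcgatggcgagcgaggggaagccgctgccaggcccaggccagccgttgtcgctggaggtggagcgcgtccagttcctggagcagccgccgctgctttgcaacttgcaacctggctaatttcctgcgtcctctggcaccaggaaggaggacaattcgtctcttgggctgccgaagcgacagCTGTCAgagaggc
Hoxa9: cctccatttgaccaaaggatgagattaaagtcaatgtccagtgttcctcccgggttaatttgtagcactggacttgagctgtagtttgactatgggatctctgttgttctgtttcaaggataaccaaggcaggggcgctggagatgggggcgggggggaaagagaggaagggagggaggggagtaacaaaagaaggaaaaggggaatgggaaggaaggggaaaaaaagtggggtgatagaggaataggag
Hoxa10: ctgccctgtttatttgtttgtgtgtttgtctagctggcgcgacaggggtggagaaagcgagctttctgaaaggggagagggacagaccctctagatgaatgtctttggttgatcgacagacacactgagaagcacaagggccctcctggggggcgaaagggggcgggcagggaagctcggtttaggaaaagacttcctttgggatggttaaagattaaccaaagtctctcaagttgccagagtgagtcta
Meis1: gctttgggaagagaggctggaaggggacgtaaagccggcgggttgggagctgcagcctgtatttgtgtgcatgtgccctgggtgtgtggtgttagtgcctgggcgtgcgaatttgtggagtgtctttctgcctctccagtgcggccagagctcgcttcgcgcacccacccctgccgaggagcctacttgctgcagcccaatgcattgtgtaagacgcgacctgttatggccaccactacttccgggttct

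These windows were searched on both strands for TGACAG (the MEIS core, CTGTCA on the other strand), TGATNNAT (the joint PBX-HOX site) and TAATTA (a homeodomain core that reads the same on both strands). Of the 8 windows of 7 member genes, 1 held TGACAG, that of Hoxa3, and 0 held TGATNNAT or TAATTA. Of all 32851 windows of 250 bases, 15.9% held TGACAG, 7.68% TGATNNAT and 4.84% TAATTA. A match is a string of letters in the window and does not show binding.

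The deposited values are linear intensities. Values below are their log2, except the median and summed intensities, which are linear. The median intensity was 98.3 to 103 on the LSK arrays and 65.4 to 68.6 on the 6 GMP arrays. Ncstn, read by its brightest probe set, was 8.99 to 9.13 in LSK WT, 9.25 to 9.31 in GMP WT and 7.76 to 7.79 in GMP NcstnKO, so every knockout array lay below every other. The transcripts of 4 of 9 arrays went against the labelled sex: GMP WT arrays 2 and 3, labelled female, read male by Xist and Eif2s3y, and GMP NcstnKO arrays 2 and 3, labelled male, read female. All 3 knockout arrays read female, whereas each WT group held 1 female and 2 male arrays by transcripts, so part of a sex difference would fall together with genotype. The log2 ratio of Actb probe sets at the 3′ and 5′ ends of the transcript grows as RNA gets shorter. It was 0.663 to 0.870 in LSK, 0.500 to 0.705 in GMP WT and 0.809 to 1.06 in GMP NcstnKO. Every knockout array lay above every GMP WT array, so between the GMP groups this ratio falls together with genotype. The summed intensity of 4 stem cell markers (Procr, Mecom, Hlf and Slamf1, measured of 6 listed) was 7969 to 11301 in LSK WT, 824 to 1204 in GMP WT and 755 to 1013 in GMP NcstnKO. That of 5 myeloid progenitor markers (Mpo, Elane, Prtn3, Ctsg and Fcgr3) was 30110 to 37027 in LSK and 53429 to 57942 over both GMP groups. All 6 late neutrophil markers were nevertheless lower in GMP WT than in LSK (summed intensity 30365 to 38727 against 55008 to 69274), and no defining marker of that list was at background in LSK.

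The comparison of GMP WT with LSK WT asks what changes as multipotent cells commit to the granulocyte and monocyte lineage. Most Hoxa transcripts, Hoxb5 and Meis1 were lower in GMP (by 8.03-fold at most), while the brightest probe sets of Hoxb4 and Pbx3 did not pass the test. Of 19 member probe sets 14 were lower at a limma adjusted p under 0.05 and 0 were higher, where 34.9% of all probe sets were called, 28.8% lower and 6.04% higher. The groups did not overlap for 15 members, all lower in GMP WT, beside 51.8% of all probe sets without overlap and 40.3% with GMP WT lower. By the brightest probe set of each gene, 7 of 9 members fell, beside 29.2% of all genes (36.2% were called in either direction). The median log2 difference of the 19 was −1.34, against −0.20 over all probe sets. Because the LSK arrays have higher medians, that overall shift depended on the scaling: it was 0.06 with quantile normalization and 0.15 with each array centred at its 75th percentile. Of the 14 falls, 12 passed under both scalings, and the exceptions were Hoxb4 1451761_at and Pbx3 1421193_a_at. The arrays read whole sorts, in which fewer cells that express a gene and less of its RNA per cell cannot be told apart. The summed intensity of lymphoid markers (Cd79a, Il7r, Rag1 and Dntt, 4 measured of 5) was 9706 to 13617 in LSK and 2057 to 3085 in GMP WT, and 2 of the 4 passed as lower. Rag1 (−2.42, adjusted p = 0.0516) and Dntt (−1.91, adjusted p = 0.0620) were lower without overlap but did not pass. Erythroid markers summed to 29198 to 31674 in LSK and 14260 to 23882 in GMP WT, and 2 of 5 passed as lower. The rest (Car1, Car2 and Ermap) were lower without passing. Mast cell and basophil markers summed to 733 to 1486 in LSK and 4596 to 6904 in GMP WT (3 of 3 rose). The part of such cells in the members' falls was not tested.

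**Figure D1:**
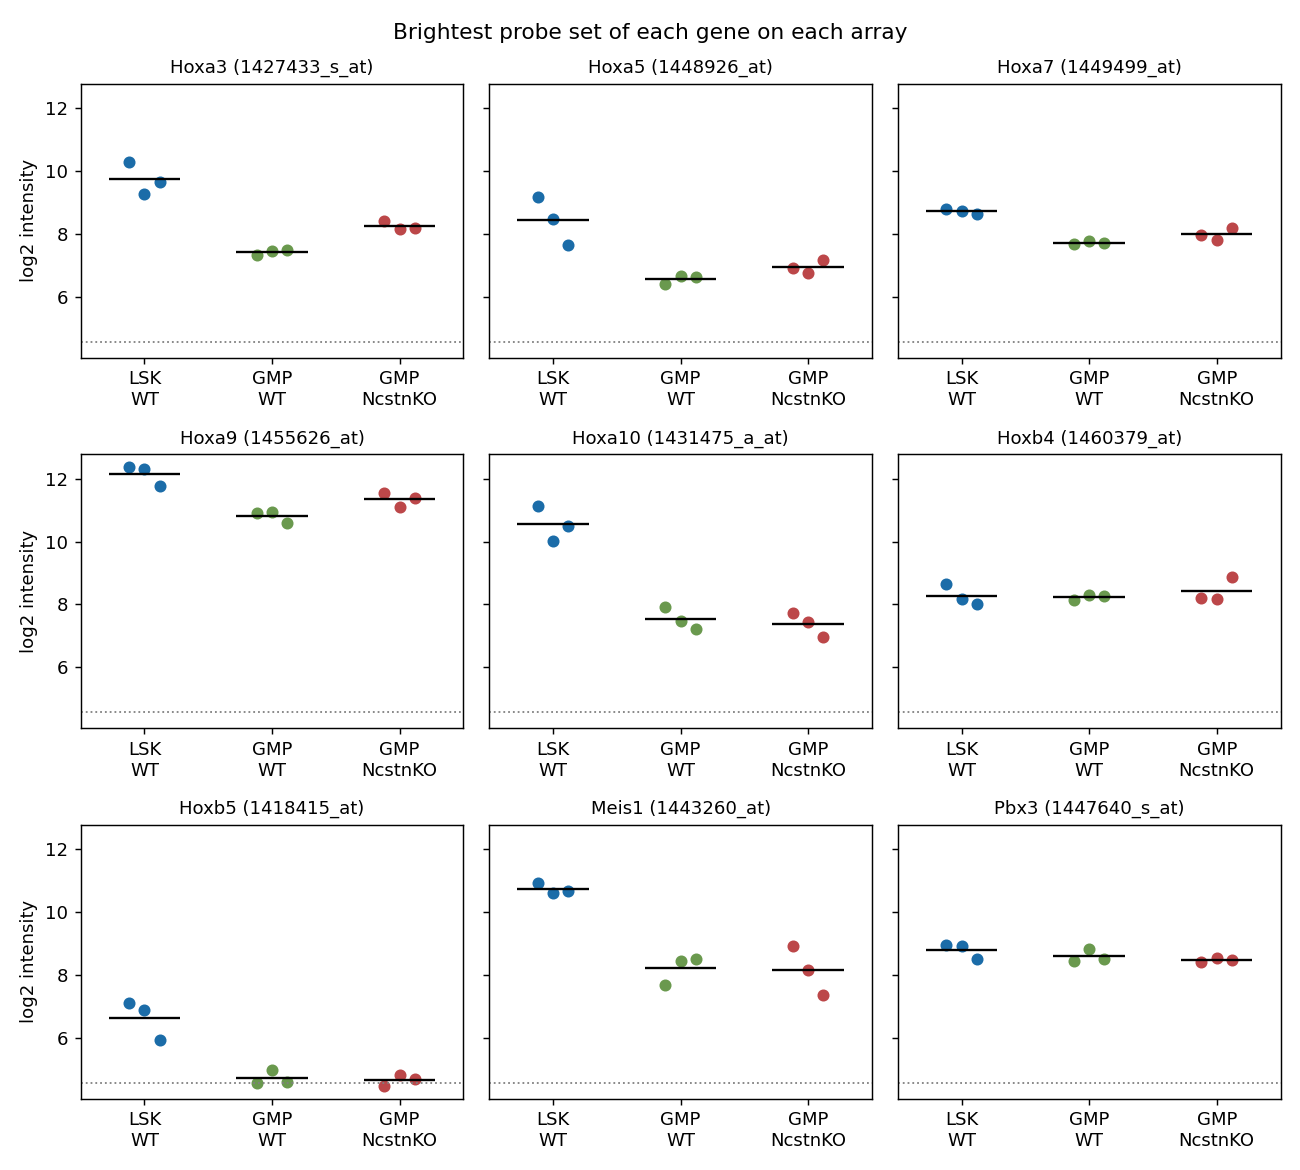
Log2 intensity of the brightest probe set of each member gene on each of the 9 arrays (points, in replicate order), with the group mean (line); the dotted line at 4.57 is the highest of the background limits of the arrays. Hoxa3, Hoxa5, Hoxa7, Hoxa9, Hoxa10, Hoxb5 and Meis1 lay higher on all 3 LSK arrays than on all 6 GMP arrays, and Hoxb4 and Pbx3 did not.

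Hoxa10, a posterior cluster gene that restrains myeloid maturation when overexpressed, had the largest fall among the members. Its probe set 1431475_a_at read 11.14, 10.02 and 10.49 on the LSK arrays and 7.93, 7.47 and 7.23 on the GMP WT arrays. The lowest LSK array lay 2.09 above the highest GMP WT array. The level was 8.03-fold lower in GMP WT (log2 difference −3.01, SE 0.31, adjusted p = 0.000292). Its other probe set, 1446408_at, was below the background limit on all 9 arrays and carries no level.

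Hoxa9, which stem cells need for normal repopulation and which drives leukemia together with Meis1, read 12.38, 12.31 and 11.76 in LSK and 10.91, 10.94 and 10.58 in GMP WT by 1455626_at. All GMP WT arrays lay below all LSK arrays. The fall was 2.53-fold (−1.34, SE 0.19, adjusted p = 0.00128). A second stretch of the transcript, read by 1421579_at, gave 9.96, 9.79 and 9.06 in LSK and 8.07, 8.52 and 8.30 in GMP WT. That fall was of like size, 2.48-fold (−1.31, SE 0.25, adjusted p = 0.00434).

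Hoxa7, active in multipotent progenitors, varied least between arrays within LSK and within GMP WT among the brightest probe sets. It read 8.79, 8.74 and 8.65 in LSK and 7.69, 7.79 and 7.73 in GMP WT. The fall of 1.99-fold (−0.99, SE 0.11, adjusted p = 0.000383) was several times the SD within either group (0.07 and 0.05). On the same arrays the log2 change of Hoxa10 minus that of Hoxa7 was −2.01, without overlap between groups. The exact 2-sided permutation test over 3 against 3 arrays gave p = 0.1, its smallest, and 0.125 after adjustment over 5 such pairs, which were chosen after the values were seen. That test takes the arrays as unpaired. With same-numbered arrays kept as pairs, an exact test added after seeing the data gave p = 0.25, its smallest, for each of the 3 such comparisons of GMP WT with LSK.

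Hoxa5, which favours myeloid over erythroid fate when overexpressed in human progenitors, read 9.16, 8.48 and 7.66 in LSK and 6.41, 6.66 and 6.63 in GMP WT by 1448926_at. The LSK arrays spread widely (SD 0.75), and the lowest still lay 0.99 above the highest GMP WT array. The fall was 3.64-fold (−1.87, SE 0.32, adjusted p = 0.00293). The probe set 1443803_x_at fell by 1.65 (adjusted p = 0.000732), and its suffix marks probes that can pair with other transcripts.

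Hoxa3, an anterior cluster gene best known from the hemogenic endothelium and pharynx of the embryo, was read unequally by its 4 probe sets. By 1427433_s_at it read 10.28, 9.28 and 9.66 in LSK and 7.34, 7.46 and 7.50 in GMP WT, a 4.96-fold fall (−2.31, SE 0.22, adjusted p = 0.000194). By 1452421_at it read 8.20, 7.44 and 7.53 in LSK and 7.28, 7.49 and 7.38 in GMP WT, which overlap (−0.34, 95% interval −0.91 to 0.23, adjusted p = 0.328). The array annotation gives both probe sets the same source transcript. The log2 change of the former minus that of the latter was −1.97 (exact permutation p = 0.1, 0.125 adjusted). The dimmer 1429398_at fell by 1.54 (adjusted p = 0.00106), and 1431392_at was below the background limit on all 9 arrays. The suffix of 1427433_s_at marks probes shared by several transcripts, so the fall of its signal may not be that of Hoxa3 alone.

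Of the Hoxb cluster, Hoxb5, whose expression marks long-term stem cells in the mouse, read 7.10, 6.90 and 5.93 in LSK and 4.58, 4.99 and 4.60 in GMP WT. The GMP WT arrays lay just above their background limits of 4.30 to 4.39. The measured fall was 3.79-fold (−1.92, SE 0.28, adjusted p = 0.00142). Hoxb4, which expands stem cells when overexpressed, gave no single answer. Its brighter probe set 1460379_at read 8.66, 8.16 and 8.0 in LSK and 8.14, 8.31 and 8.26 in GMP WT, with a difference of −0.04 (95% interval −0.55 to 0.47, adjusted p = 0.915). Its dimmer probe set 1451761_at read 6.43, 6.17 and 6.16 in LSK and 5.50, 5.80 and 5.63 in GMP WT, and fell by 0.61 (SE 0.12, adjusted p = 0.00474). That call was lost after quantile normalization (−0.08, adjusted p = 0.620) and after centring (−0.26, adjusted p = 0.104).

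Meis1, the cofactor that stem cells need and that HOXA9 recruits in leukemia, fell by all 3 of its probe sets. The brightest, 1443260_at, read 10.92, 10.61 and 10.66 in LSK and 7.69, 8.43 and 8.51 in GMP WT. The lowest LSK array lay 2.10 above the highest GMP WT array, and GMP WT array 1 was the lowest of its group by every Meis1 probe set. The fall was 5.72-fold (−2.52, SE 0.37, adjusted p = 0.00137). The probe sets 1450992_a_at and 1459423_at gave −2.36 (adjusted p = 0.000243) and −2.11 (adjusted p = 0.00247). On the same arrays the log2 change of Meis1 minus that of Hoxa9 was −1.18 (exact permutation p = 0.1, 0.125 adjusted).

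Pbx3, the PBX protein that joins HOXA9 and MEIS1 in leukemic complexes, differed between its probe sets. The suffix of 1447640_s_at marks probes shared by several transcripts. By that probe set Pbx3 read 8.95, 8.91 and 8.51 in LSK and 8.45, 8.84 and 8.50 in GMP WT (−0.19, 95% interval −0.53 to 0.15, adjusted p = 0.356). By 1421193_a_at it read 7.40, 7.48 and 7.15 in LSK and 6.93, 6.47 and 6.58 in GMP WT, a fall of 0.68 (SE 0.22, adjusted p = 0.0439). With the replicate number as a block that fall did not pass (adjusted p = 0.0665). It did not pass either without LSK array 1 (−0.65, adjusted p = 0.108), 2 (−0.61, 0.118) or 3 (−0.78, 0.0513), without GMP WT array 2 (−0.58, 0.130) or 3 (−0.64, 0.112) or without GMP NcstnKO array 3 (−0.68, 0.0592). After quantile normalization the difference was −0.09 (adjusted p = 0.797) and after centring −0.33 (adjusted p = 0.264). In all the fall by 1421193_a_at did not pass in 11 of 19 alternative settings.

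**Figure D2:**
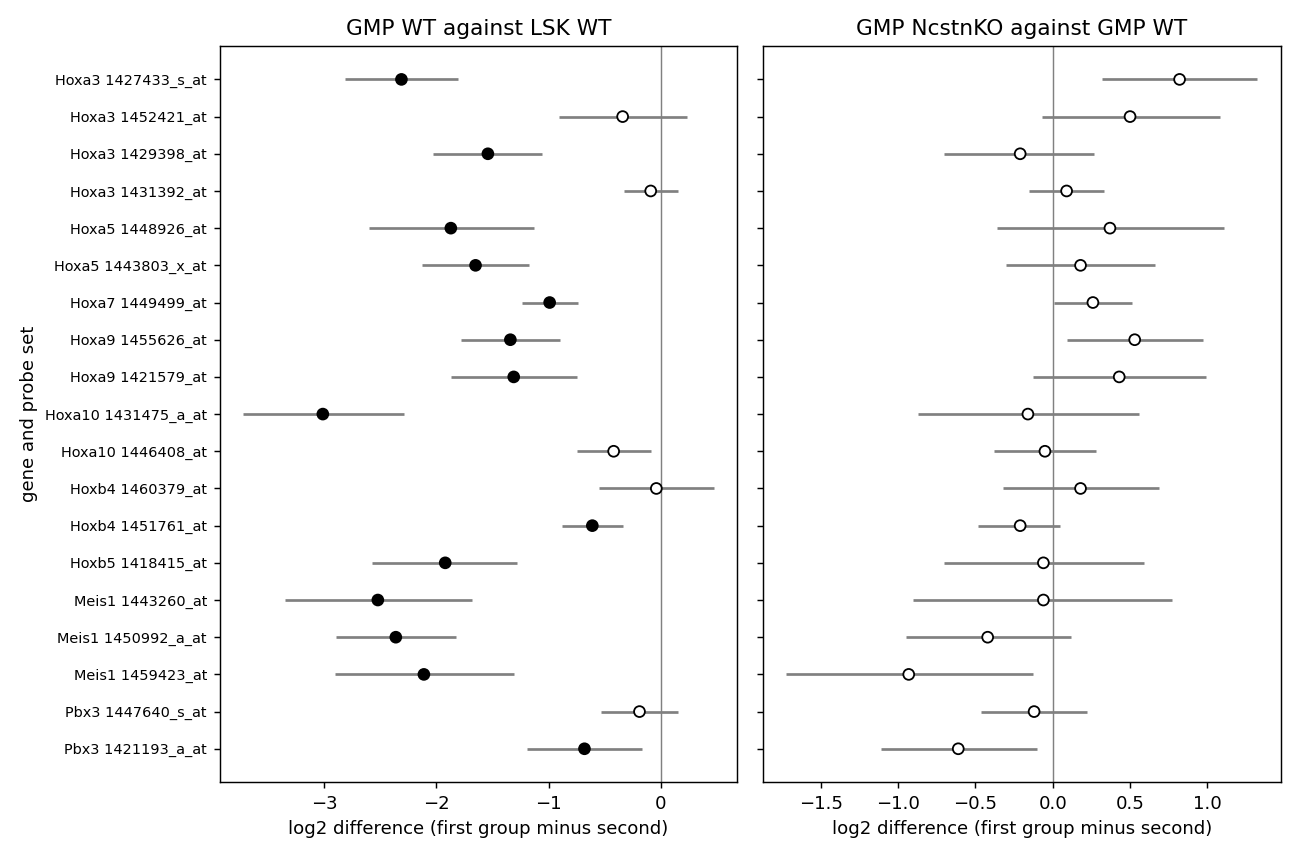
Log2 difference of each member probe set with its 95% interval, for GMP WT minus LSK WT (left) and GMP NcstnKO minus GMP WT (right; the axes differ). Filled points passed at an adjusted p under 0.05: on the left 14 of 19, all below 0, and on the right 0 of 19.

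The comparison of GMP NcstnKO with GMP WT asks what differs in these committed progenitors without nicastrin. Of 19 member probe sets 0 passed limma at an adjusted p under 0.05, where 1.75% of all probe sets did (790, with 0.604% higher and 1.15% lower). At an unadjusted p under 0.05 stood 5 member probe sets and 8937 of all. The median difference of the members was −0.05, against 0.04 over all probe sets. The groups did not overlap for 5 members, all higher in the knockout and all of the Hoxa cluster, as are most member probe sets. Of all probe sets 27.2% did not overlap, and 14.9% did so with the knockout higher. The members' share without overlap is close to that 27.2% in either direction and above the 14.9% with the knockout higher. None of the 5 passed limma, and the distance from the 14.9% was not tested.

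Among these, Hoxa3 by 1427433_s_at read 8.40, 8.17 and 8.18 in the knockout against 7.34, 7.46 and 7.50 in GMP WT. The lowest knockout array lay 0.67 above the highest WT array (difference 0.82, 95% interval 0.32 to 1.32, limma adjusted p = 0.0930). Its other bright probe set, 1452421_at, read 7.77, 7.53 and 8.37 against 7.28, 7.49 and 7.38, a gap between the groups of 0.04 (0.50, adjusted p = 0.311). By 1429398_at the sign was the opposite (−0.21, adjusted p = 0.634).

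Hoxa9 by 1455626_at read 11.53, 11.09 and 11.39 in the knockout against 10.91, 10.94 and 10.58 in GMP WT. Every knockout array lay above every WT array, by 0.15 at the nearest (difference 0.53, 95% interval 0.09 to 0.97, adjusted p = 0.181). By 1421579_at it read 8.72, 8.46 and 9.0 against 8.07, 8.52 and 8.30, which overlap (0.43, adjusted p = 0.377). Hoxa7 read 7.98, 7.81 and 8.19 against 7.69, 7.79 and 7.73 (0.26, 95% interval 0.01 to 0.51, adjusted p = 0.233). Hoxa5 by 1448926_at read 6.91, 6.75 and 7.16 against 6.41, 6.66 and 6.63 (0.37, 95% interval −0.36 to 1.11, adjusted p = 0.567). These 4 genes were named because their groups did not overlap, and none passed. By their brightest probe sets the knockout arrays lay between the WT GMP and the LSK levels.

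Hoxa10 by 1431475_a_at read 7.74, 7.46 and 6.96 in the knockout, overlapping the WT arrays with array 3 below all of them (−0.16, 95% interval −0.87 to 0.56, adjusted p = 0.829). Against Hoxa10 on the same arrays, Hoxa3 stood 0.97 higher in the knockout (exact permutation p = 0.1, 0.125 adjusted). Hoxb4 by 1460379_at read 8.21, 8.17 and 8.88, with array 3 above all other arrays of all groups (0.18, 95% interval −0.32 to 0.69, adjusted p = 0.699). Hoxb5 read 4.47, 4.83 and 4.70, close to background as in GMP WT (−0.06, adjusted p = 0.937).

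The cofactors overlapped between the groups by all 5 of their probe sets. Meis1 by 1443260_at read 8.92, 8.15 and 7.37 in the knockout, a wider spread (SD 0.78) than in GMP WT (SD 0.45), with WT arrays inside that range (−0.06, 95% interval −0.90 to 0.77, adjusted p = 0.945). Its other probe sets stood lower without passing, 1450992_a_at at −0.42 (adjusted p = 0.369) and 1459423_at at −0.93 (95% interval −1.72 to −0.13, adjusted p = 0.190). By 1459423_at the knockout arrays read 6.78, 6.69 and 5.76 and the WT arrays 6.74, 7.38 and 7.90, which overlap through WT array 1. Pbx3 by 1421193_a_at read 5.61, 6.50 and 6.05 against 6.93, 6.47 and 6.58 (−0.61, 95% interval −1.11 to −0.10, adjusted p = 0.183), and by 1447640_s_at it stood at −0.12 (adjusted p = 0.711). On the same arrays the log2 change of Meis1 minus that of Hoxa9 was −0.59 (exact permutation p = 0.4, adjusted 0.4). The wide intervals of Meis1 do not show equal levels. The summed intensity of 5 measured erythroid markers was 14260 to 23882 in GMP WT and 5749 to 9418 in the knockout, and 4 of the 5 fell (Klf1, Car1, Car2 and Ermap). Of 5 macrophage markers 2 fell, C1qa (−0.91, adjusted p = 0.0392) and C1qc (−1.46, adjusted p = 0.0209), with sums of 1748 to 2895 in GMP WT and 1438 to 3492 in the knockout. Of 4 megakaryocyte markers 1 fell, Vwf (−1.04, adjusted p = 0.0458), with sums of 3535 to 5631 and 3083 to 4281. Lymphoid markers (4 measured of 5) summed to 2057 to 3085 in GMP WT and 585 to 5624 in the knockout, and 0 passed. Each of the 4 read highest on knockout array 1 and lowest on array 3, the order of Meis1 by 1443260_at (Dntt 12.29, 10.68 and 8.85). Late neutrophil markers summed to 30365 to 38727 in GMP WT and 42736 to 47068 in the knockout, and 0 of 6 passed. The part of these differences in the members' values was not tested.

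The comparison of GMP NcstnKO with LSK WT shares arrays with both others, so it is given only beside them. Of 19 member probe sets 15 were lower and 0 higher, where 43.5% of all probe sets were called, 32.1% lower and 11.4% higher. By the brightest probe set 7 of 9 genes were lower, where 31.4% of all genes were (45.3% were called in either direction). The groups did not overlap for 15 of the 19 member probe sets, all with the knockout lower. Over all probe sets 54.3% did not overlap, and 38.0% did so with the knockout lower. Hoxa10 stood at −3.16 (adjusted p = 0.000145), beside −3.01 for GMP WT, and Meis1 by its brightest probe set at −2.58 (adjusted p = 0.000804), beside −2.52. Hoxb5 stood at −1.98 (adjusted p = 0.000828), beside −1.92. The Hoxa genes with higher knockout readings, none of which passed against GMP WT, lay nearer to LSK by those readings. Hoxa3 stood at −1.49 (adjusted p = 0.000936) beside −2.31, Hoxa9 at −0.81 (adjusted p = 0.00936) beside −1.34, Hoxa7 at −0.73 (adjusted p = 0.00105) beside −0.99 and Hoxa5 at −1.49 (adjusted p = 0.00596) beside −1.87. Pbx3 by 1421193_a_at fell by 1.29 (adjusted p = 0.00210) and Hoxb4 by 1451761_at by 0.83 (adjusted p = 0.000785).

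Some of these falls depended on the scaling. After quantile normalization Hoxa7 stood at −0.20 (adjusted p = 0.162), Hoxa5 by 1448926_at at −0.92 (adjusted p = 0.0557) and Hoxa9 by 1421579_at at −0.49 (adjusted p = 0.15). In that scaling Hoxa3 by 1452421_at (0.76, adjusted p = 0.0385) and Hoxb4 by 1460379_at (0.68, adjusted p = 0.0361) were called higher in the knockout GMP than in LSK. After centring, Hoxa9 by 1455626_at stood at −0.43 (adjusted p = 0.0828) and by 1421579_at at −0.50 (adjusted p = 0.109). Hoxa3 by 1431392_at, below background on all arrays, was then called higher (0.38, adjusted p = 0.0147). The call of Hoxa9 by 1421579_at (−0.88, adjusted p = 0.0191) was lost without LSK array 1 (−0.70, adjusted p = 0.0648) or 2 (−0.79, 0.0614) or GMP NcstnKO array 2 (−0.75, 0.0650). In all that call was lost in 7 of 19 alternative settings. Hoxa10 by 1446408_at was called at −0.46 while below background on all arrays, and is not read further. Pbx3 by 1447640_s_at (−0.31, adjusted p = 0.127) passed without LSK array 3 (−0.45, adjusted p = 0.0331).

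Among the rest of the Hox family, Hoxb3 and the weakly detected Hoxb2 and Hoxa2 had the falls with the smallest p. Of 32 other Hox genes 26 had a probe set naming them alone, and 11 of these were below the background limit on all 9 arrays. In GMP WT against LSK 7 of the 26 were called lower and 3 higher, with a median of −0.26 (all genes −0.18). Of 18193 genes 36.2% were called, 29.2% lower and 6.92% higher. In the main fit the share of the 26 called lower is thus close to that of all genes. Hoxb3, which lies between the cluster's Hoxb2 and Hoxb4, read 9.54 in LSK and 7.67 in GMP WT on average (−1.88, SE 0.22, adjusted p = 0.000507). Hoxb2 and Hoxa2 were below the background limit on all GMP WT arrays and were at least 2.41-fold (adjusted p = 0.000252) and at least 4.58-fold lower (adjusted p = 0.000840). Hoxc10, the next by p, was below the limit in both groups. Of the 3 called higher, Hoxb13 stood at 0.29 (adjusted p = 0.0466), Hoxb7 was below the limit on all LSK arrays and 2 of 3 GMP WT arrays, and Hoxd10 was below it on all 9 arrays. In the knockout against GMP WT 0 of the 26 passed (3 at an unadjusted p under 0.05), with a median of 0.14 beside 0.06 over all genes.

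**Figure D3:**
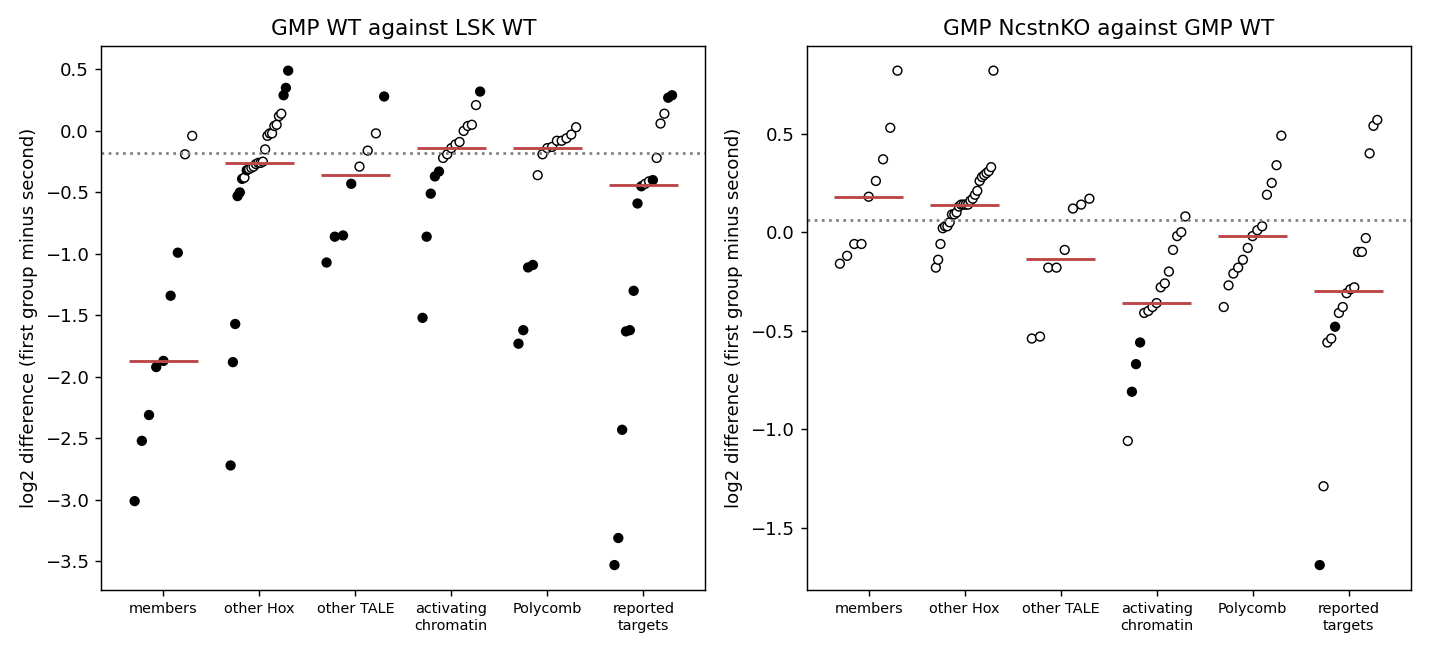
Log2 difference of the brightest probe set of each gene in 6 lists, for GMP WT minus LSK WT (left) and GMP NcstnKO minus GMP WT (right); filled points passed at an adjusted p under 0.05, red lines are list medians and the dotted line is the median of all 18193 genes. On the left the members have a median of −1.87 and 7 filled points of 9; on the right filled points appear in the activating chromatin regulators (3) and the reported targets (2).

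Of 9 other TALE genes 8 were measured. In GMP WT against LSK 4 fell and 1, Pknox2 (0.28), rose, where 29.2% of all genes fell and 6.92% rose. The falls were Tgif2, a TALE repressor, at −1.07 (SE 0.17, adjusted p = 0.00187), Pbx4 at −0.86 (SE 0.10, adjusted p = 0.000549), Pknox1, a Pbx partner related to Meis1, at −0.85 (SE 0.21, adjusted p = 0.0144) and Meis2 at −0.43 (adjusted p = 0.0173, below background in GMP WT and at least 1.02-fold lower). Meis2 was above the limit on only 1 LSK array, and the suffix of 1447861_x_at marks probes that can pair with other transcripts. Its other probe sets stood at −0.46, −0.21 and 0.11. Pbx4 did not pass after quantile normalization (−0.31, adjusted p = 0.0576), nor Pknox1 after centring (−0.51, adjusted p = 0.0853), nor Meis2 under either, nor Meis2 without LSK array 2 (−0.37) or GMP WT array 2 (−0.36). In all Pknox1 lost its call in 2 of 21 alternative settings and Meis2 in 6 of 20. None of the 8 passed in the knockout against GMP WT (2 at an unadjusted p under 0.05), with Pknox1 at −0.54 and Tgif2 at −0.53.

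Among the chromatin regulators that keep Hox genes active, Kmt2a, Dot1l and Kat6a were called lower in the knockout. Of 15 measured (16 listed) 3 fell in GMP NcstnKO against GMP WT and 0 rose, with a median of −0.36 beside 0.06 over all genes, 2.31% of which were called. At an unadjusted limma p under 0.05 stood 10 of the 15, all lower, beside 8937 of all 45037 probe sets in either direction. Kmt2a (MLL1), the histone H3 lysine methyltransferase of Hox loci, read 10.43, 10.46 and 10.37 in the knockout and 10.94, 11.35 and 11.40 in GMP WT (−0.81, SE 0.14, adjusted p = 0.0383). Dot1l, the H3K79 methyltransferase that acts with MLL fusions, read 10.73, 10.77 and 10.65 against 11.23, 11.33 and 11.28 (−0.56, SE 0.09, adjusted p = 0.0341). Kat6a (MOZ), an acetyltransferase that stem cells need, read 10.40, 10.67 and 10.67 against 11.10, 11.28 and 11.35 (−0.67, SE 0.11, adjusted p = 0.0359). The knockout arrays lay below every WT array for each of the 3.

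Each of these 3 calls was lost in 14 of 21 alternative settings. Among them were leaving out any 1 of the 9 arrays, a sex covariate, the Actb ratio as a covariate and a fit of these groups alone. Over all alternatives the log2 difference ran from −0.96 to −0.54 for Kmt2a (adjusted p = 0.0197 to 0.551), from −0.60 to −0.48 for Dot1l (0.0176 to 0.487) and from −0.75 to −0.40 for Kat6a (0.0176 to 0.529). The second probe set of Dot1l passed too (−0.56, adjusted p = 0.0413), while that of Kmt2a (−0.79, adjusted p = 0.0960) and the others of Kat6a (−0.34 and −0.47) did not. In GMP WT against LSK 5 of the 15 fell and 1 rose, Ash2l (0.32). In the main fit the share that fell is close to the 29.2% of all genes. Those with the smallest p were Kmt2a (−0.86, adjusted p = 0.00234), Mllt3 (AF9), a subunit of the elongation complexes that MLL fusions recruit, at −1.52 (SE 0.29, adjusted p = 0.00440), Aff4 (−0.51, adjusted p = 0.00974) and Kat6a (−0.37, adjusted p = 0.0278). Kat6a and Aff4 did not pass under either other scaling, and Kat6a lost its call without any of the 3 LSK arrays (−0.37, −0.38 and −0.37) or without GMP WT array 1 (−0.30) or 2 (−0.39). In all Kat6a lost that call in 8 of 21 alternative settings.

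Of 13 Polycomb genes, whose complexes silence Hox loci, 4 fell and 0 rose in GMP WT against LSK, with a median of −0.14 beside −0.18 over all genes. In the main fit that share is close to the 29.2% of all genes that fell, so the count there shows nothing about the list. Probe sets called lower went from 12988 of 45037 to 5798 after quantile normalization and 5830 after centring. The list was not compared with all genes under those scalings. The 4 falls kept their calls in all 21 alternative settings. They were Cbx2 (−1.73, SE 0.20, adjusted p = 0.000447), Cbx7 (−1.62, SE 0.29, adjusted p = 0.00367), Phc1 (−1.11, SE 0.15, adjusted p = 0.000979) and Ezh1 (−1.09, SE 0.22, adjusted p = 0.00557). The other probe sets of Ezh1 stood at −0.82 (adjusted p = 0.00158), −0.62 (0.0553) and 0.31 (0.396), and the mean over its probe sets at −0.55 (adjusted p = 0.0191). The core methyltransferase subunits Ezh2 (−0.08), Eed (−0.03) and Suz12 (0.03) did not pass. None of the 13 passed in the knockout against GMP WT (2 at an unadjusted p under 0.05).

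Of 16 genes reported elsewhere as targets of HOXA9 and MEIS1, 9 fell and 2 rose in GMP WT against LSK, with a median of −0.44, where 29.2% of all genes fell and 6.92% rose. The falls with the smallest p were those of Mecom (−3.53, SE 0.20, adjusted p = 2.5e-05) and Hlf (−3.31, SE 0.27, adjusted p = 9.8e-05), which also serve as stem cell markers here, Erg (−1.63, SE 0.13, adjusted p = 9.8e-05) and the receptor gene Flt3 (−2.43, SE 0.24, adjusted p = 0.000243). Myb (0.27) and Cdk6 (0.29) rose. In the knockout 2 of the 16 fell, where 1.46% of all genes did: the pseudokinase gene Trib2 and the cell cycle kinase gene Cdk6. At an unadjusted limma p under 0.05 stood 10 of the 16, among them Id2 (0.57) and Pim1 (0.54), which were higher. Trib2 read 8.05, 7.17 and 6.75 against 9.17, 8.64 and 9.23 in GMP WT (−1.69, SE 0.33, adjusted p = 0.0472). That reading is by 1426640_s_at, whose suffix marks probes shared by several transcripts. The other Trib2 probe sets (−0.58 and 0.10) did not pass. Cdk6 stood at −0.48 (SE 0.09, adjusted p = 0.0475), with its other probe sets at −0.39 and −0.84 without passing. The Cdk6 call was lost when any 1 array was left out, and the Trib2 call when any 1 array other than GMP NcstnKO array 1 was (−1.87 to −1.40). In all the Cdk6 call was lost in 17 of 21 alternative settings and the Trib2 call in 15. Flt3 stood at 0.40 and Mecom at −0.28 in the knockout without passing.

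The genes most like Meis1 over the 9 arrays, by Pearson correlation of log2 intensity, were Gimap4 (r = 0.995), Gimap8 (0.994), Gimap7 (0.992), Gprc5b (0.991) and Mfsd6 (0.991). Gimap8 averaged 11.16 in LSK, 7.18 in GMP WT and 7.03 in GMP NcstnKO, so its step between LSK and GMP was larger than that of Meis1 (−3.98 beside −2.52). Those most like Hoxa9 were Fa2h (0.991, below the background limit on all arrays), Adamtsl2 (0.991), Art5 (0.988), A330102I10Rik (0.981) and Carns1 (0.980). Carns1 had the 3-level order of Hoxa9, with means of 9.30 in LSK, 7.59 in GMP WT and 8.12 in GMP NcstnKO. The 9 points of each correlation fall into the 3 groups, and the genes were picked from 18193 for this likeness, so r describes the arrays only.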

How the data were processed

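For each of 9 Affymetrix arrays the authors deposited 1 linear intensity per probe set. RMA is named without a version, per the submitters' processing notes. RNA was extracted, amplified from 5 ng and biotin-labelled, per the labels' protocols. Precision is limited by having 3 arrays per group.

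Log2 intensities of 45037 probe sets (64 controls left out) were fitted with limma 3.58.1 in R 4.3.3 on 3 group means over 9 arrays (lmFit and eBayes, 2-sided, 6 residual degrees of freedom). Calls use a Benjamini-Hochberg adjusted p under 0.05 over all probe sets, and all adjusted p-values are limma's unless an exact test is named. Probe sets were named through the platform table that GEO supplies (34945 probe sets with 1 symbol, 932 with several, 9160 with none), and all 9 member symbols matched RefSeq (GRCm38.p6) by Entrez ID. For genes of lists the brightest probe set was used. A signal is below background at or under the 95th percentile of 27 unspiked bacterial control probe sets on the same array, and a fold against a group that is below it on every array is a lower bound. The fit was tested on simulated data.

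Members, lists and tests were chosen with earlier results of these data known. Each member is described by its brightest probe set on every array. In lists, genes called in the knockout and up to 4 called genes with the smallest p are named; Pknox2, Hoxb7, Hoxb13, Hoxd10, Ash2l, Myb and others given in passing were named after their values were seen. Same-numbered LSK and GMP WT arrays correlated in their deviations from group means (0.247, 0.247 and 0.296 over all probe sets, against −0.172 to −0.09 for differently numbered ones). From the data, their numbers were taken to pair them, while knockout numbers showed no pairing. The main limma fit leaves this pairing out, so it enters only the replicate block and the added paired exact test. Promoter windows are from RefSeq. Alternatives were other scalings, filters, gene summaries, covariates, a replicate block and leaving out each array.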

Additional observations from a re-analysis of the deposited data

How the results depend on the processing

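The count of member calls stayed within 1.5 times of its value under the alternatives tried. It was 12 to 15 of 19 probe sets in GMP WT against LSK (13 to 15 with 1 array left out), 0 in the knockout against GMP WT throughout, and 13 to 16 in the knockout against LSK (13 to 16 with 1 array left out), with 2 of 13 higher after quantile normalization and 1 of 13 higher after centring. With the replicate block it was 14, 0 and 15. Beside the Pbx3 1421193_a_at call lost under the block, Hoxa10 1446408_at, below background, then passed in GMP WT against LSK (adjusted p = 0.0474), and no other member call changed. The block ended the knockout calls of Kmt2a (adjusted p = 0.0769), Dot1l (0.0670), Kat6a (0.0641), Trib2 (0.0765) and Cdk6 (0.0755), whose numbers are not paired by the check. The count over all probe sets in the knockout against GMP WT, 790 here, was 1415 with an intensity trend, 1367 without the dimmest 40%, 1295 with 16 added before log2, 498 after quantile normalization, 9 with the block, 2 with only the compared arrays fitted, 1 and 4 with label and transcript sex, 0 with the Actb ratio and 1 to 285 with 1 array left out. The split of all calls in GMP WT against LSK, 2722 higher and 12988 lower, became 7912 and 5798 after quantile normalization and 12180 and 5830 after centring, and that of the knockout against LSK, 5128 and 14447, became 11429 and 8359, and 16932 and 7597.

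The differences below changed sign under the settings named, where they did not pass, and the cause was not tested. Some of these probe sets passed under another setting: in the knockout against LSK, Hoxa3 1452421_at (0.76) and Hoxb4 1460379_at (0.68) higher after quantile normalization, Hoxa3 1431392_at higher after centring (0.38), and Pbx3 1447640_s_at lower without LSK array 3 (−0.45) and as a mean over probe sets (−0.80), the last also in GMP WT against LSK (−0.43). In GMP WT against LSK after quantile normalization and centring these were Hoxa3 1452421_at (0.22, 0.01), Hoxa3 1431392_at (0.11, 0.26), Hoxb4 1460379_at (0.47, 0.31) and Pbx3 1447640_s_at (0.27, 0.16); Hoxb4 1460379_at also turned with 1 array left out (−0.17 to 0.16). In the knockout against GMP WT, Hoxb4 1460379_at stood at −0.01 as a mean over probe sets. With label sex as a covariate the values were 0.04 for Hoxa3 1429398_at, 0.32 for Hoxa10 1431475_a_at, 0.04 for Hoxa10 1446408_at, 0.07 for Hoxb5 and 0.42 for Meis1 1443260_at. With transcript sex they were −0.04 for Hoxa3 1431392_at and 0.10 for Meis1 1443260_at, and with the Actb ratio 0.06 for Hoxb4 1451761_at, 0.18 for Hoxb5 and 0.02 for Pbx3 1447640_s_at. With 1 array left out the ranges were −0.33 to 0.06 for Hoxa10 1431475_a_at, −0.16 to 0.06 for Hoxa10 1446408_at, −0.05 to 0.31 for Hoxb4 1460379_at, −0.14 to 0.08 for Hoxb5, −0.45 to 0.32 for Meis1 1443260_at and −0.19 to 0.00 for Pbx3 1447640_s_at. In the knockout against LSK, Pbx3 1447640_s_at stood at 0.18 after quantile normalization and 0.07 after centring, Hoxb4 1460379_at at −0.34 as a mean over probe sets, and Hoxa3 1452421_at at −0.02 and 1431392_at at −0.13 with transcript sex (1431392_at at 0.00 with 16 added). With 1 array left out the ranges were −0.08 to 0.40 for Hoxa3 1452421_at, −0.06 to 0.08 for Hoxa3 1431392_at and −0.08 to 0.34 for Hoxb4 1460379_at.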
